A study of Rattus norvegicus with 30 samples.

Results

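Lung RNA was compared between emodin-treated rats with severe acute pancreatitis (Emo-24h) and sham-operated rats (Sham-24h), both taken 24 h after surgery. The comparison rests on 6 of the 30 libraries of the series, 3 rats per group. The rule that picks the rats uses their labels and no measured value, while the comparison itself was chosen with earlier results of these data known. It asks whether lungs of treated animals with pancreatitis differ from lungs that never met the pancreatic insult, and how closely likeness can be stated for groups of genes. All animals were male Sprague Dawley rats of 8 weeks and 180 to 220 g that had been fasted for 12 h. In the Emo-24h rats 5.0% sodium taurocholate (0.1 mL per 100 g) was run backwards into the biliopancreatic duct, and emodin was given by stomach tube at 2 h and 12 h. Its dose was 40 mg/kg by the study's methods and the treatment protocol in the labels, whereas the sample descriptions hold 10 mg/kg. In the Sham-24h rats the pancreas was only turned slightly, with no duct infusion named in the labels, and 0.5% carboxymethylcellulose, the carrier, was given in place of emodin at the same times. Rats of both groups also received intravenous saline. The contrast therefore holds the duct infusion, the taurocholate and the emodin together, and their parts cannot be told apart in it. The untreated model (SAP-24h, taurocholate with carrier), the model given intravenous dexamethasone, a glucocorticoid, at 10 mg/kg (DEX-24h) and the control group with saline run into the duct (Con-24h) are used only as reference points, with 3 rats each. Emodin-treated and sham rats taken at 6 h (Emo-6h and Sham-6h, 3 rats each) serve only to set the 2 times side by side. The Emo-6h rats had emodin at 2 h and not at 12 h.

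Taurocholate is a bile salt that, forced into the pancreatic duct, sets off autodigestion of the gland. Enzymes, cytokines and cell debris then reach the lung through the blood, where the capillary endothelium becomes sticky for neutrophils and leaky for plasma. The epithelium beyond it consists of flat type 1 cells for gas exchange and surfactant-producing type 2 cells, which also pump fluid out of the airspace. Emodin is an anthraquinone found in rhubarb and is studied as an anti-inflammatory compound.

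The total count per library was 25012600 to 27731374 in Emo-24h and 26840953 to 29520769 in Sham-24h. Rats of the same group differed far beyond counting error, with a chi-square per degree of freedom of 37.4 to 77.3 over genes. The lung label fits its defining markers. Surfactant protein C (Sftpc) stood at 17539 to 24378 FPKM, a level scaled for transcript length and library size, in the 6 libraries. The libraries of taurocholate-infused rats and those of the other rats also differed in their share of uniquely mapped reads, which cannot be told apart from the infusion. RNA of whole lung was measured, so fewer cells of a type and less RNA per cell cannot be told apart in any result.

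No gene passed the test between Emo-24h and Sham-24h. Of 15934 genes with enough reads, 0 (0%) passed edgeR's quasi-likelihood test, which asked for a Benjamini-Hochberg adjusted p below 0.05 together with 2-fold or more, and the lowest adjusted p was 0.9997. Unadjusted, 478 genes (3%) had p below 0.05, with 257 higher and 221 lower in Emo-24h. That balance depended on single rats. It turned to 156 higher and 237 lower without Emo-24h rat 3, 215 and 239 without Sham-24h rat 1, and 368 and 443 without Sham-24h rat 3. Without each of the other rats more genes were higher than lower. DESeq2 and limma-voom also called 0 genes, with 548 and 515 at an unadjusted p below 0.05. By contrast, edgeR's older exact test on the 6 libraries alone called 66 of 15197 genes (0.434%), 53 higher (0.349%) and 13 lower (0.0855%) in Emo-24h. This test takes the estimated dispersion of each gene as known. In the quasi-likelihood fit, 58 of those 66 genes had an unadjusted p below 0.05.

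In the same fit SAP-24h differed from Sham-24h in 796 genes (5%), 316 higher and 480 lower. Without SAP-24h rat 2 the majority turned, with 411 higher and 338 lower. Emo-24h differed from SAP-24h in 508 (3.19%), 308 higher and 200 lower. Here too the majority turned without SAP-24h rat 2, to 212 higher and 293 lower. Both contrasts share rats with the one described here, so their values are set beside it below and not compared with it by a test. With the fit limited to the 6 libraries of each contrast the counts were 3 and 0, and the cause was not tested.

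A missing call does not show likeness, so each gene's 95% confidence interval was read against a 2-fold band. The interval lay wholly within a 2-fold difference in either direction for 11514 genes (72.3%), and within 1.5-fold for 7669 (48.1%). The median log2 difference was -0.00783 and the median size of the difference 0.127. How tightly a gene could be held depended on its level. Of 3422 genes below 1 FPKM only 24% lay within 2-fold, against 80.9% of 6904 genes at 1 to 10 FPKM, 91.3% of 4906 at 10 to 100 FPKM and 89.5% of 702 at 100 FPKM or more. The median half-width of the interval was 2.09-fold in the lowest class and 1.36-, 1.25- and 1.27-fold in the others. At the other end, 13 genes had an interval wholly beyond 2-fold. Each interval covers its own gene only, and no joint statement over all of them is made.

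**Figure D1:**
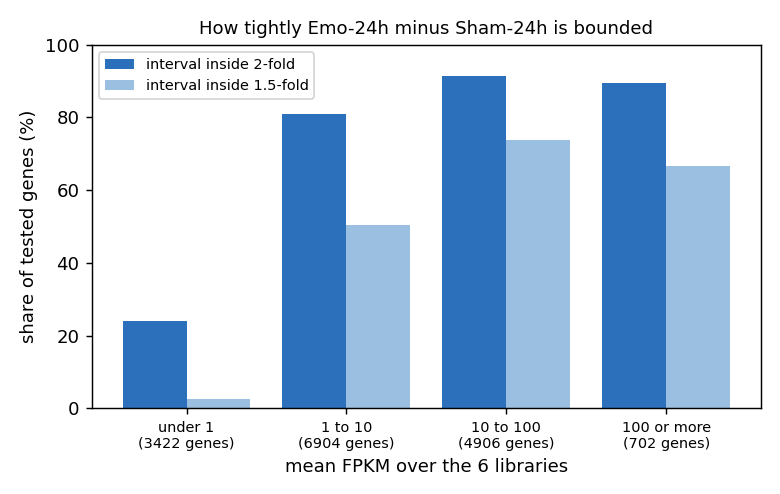
Share of tested genes, in percent, whose 95% confidence interval for Emo-24h against Sham-24h lies within 2-fold or within 1.5-fold, by class of mean FPKM over the 6 libraries. The share is 24% within 2-fold below 1 FPKM and 80.9% to 91.3% in the 3 higher classes.

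The list with the largest median difference from sham was the interferon response, the antiviral genes that cells switch on when type I or type II interferon reaches them. Interferon binding to its receptor activates transcription factors that bind DNA elements built on repeated GAAA and drive genes that block viral RNA and proteins. The 21 tested members of the list all had a positive difference, from 0.67 to 3.70 with a median of 2.22 on the log2 scale, where the median over all genes was -0.00783. No member passed the adjusted test, and 12 of 21 were higher at an unadjusted p below 0.05, where 1.61% of all genes were. In 11 members all 3 Emo-24h rats were above all 3 Sham-24h rats, which held for 5.49% of all genes. No member's interval lay within 2-fold. The exact test called 7 of the 21 higher, namely Gbp2, Gbp5, Ifit2, Ifit3, Isg15, Oasl and Rsad2, where it called 0.349% of all genes higher.

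RefSeq promoter windows (rat build GRCr8, from 250 bases before to 50 after the start of the gene) were found for 14 of the 21 members and were searched on both strands for GAAA, any 2 bases and GAAA again, the core shared by interferon-stimulated response elements and IRF sites. Of these 14, 10 (71.4%) held a match, against 1312 of 33469 promoters in the table (3.92%) and 326 of 10793 promoters of tested genes (3.02%). A match only describes letters in a window. The first match in each of 7 members is shown with 10 bases on either side, 5′ to 3′ on the strand of the gene, to let the shared core be seen beside the values that follow. Capitals mark the motif or its reverse complement.
Ifit3 (chr1:241527272-241527301, gene on the + strand): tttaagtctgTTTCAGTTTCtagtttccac
Rsad2 (chr6:48788248-48788277, gene on the - strand): ctggttcaacTTTCATTTTCagaaaacaga
Gbp2 (chr2:234005686-234005715, gene on the + strand): agttttttagTTTCACTTTCattgtcttaa
Gbp5 (chr2:233910933-233910962, gene on the + strand): acttgtgtagTTTCAATTTCagtttagagg
Irf7 (chr1:205800073-205800102, gene on the - strand): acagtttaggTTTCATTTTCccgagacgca
Oas1a (chr12:41330415-41330444, gene on the + strand): cccctctcggGAAATGGAAActgaaaatct
Bst2 (chr16:18255079-18255108, gene on the - strand): ccctttccagGAAAATGAAActgaaaggtg
Oas1a and Bst2 each held another match that overlaps the one shown. The matches shown began from 31 bases before the start of the gene in Gbp2 to 147 in Rsad2. Mx1, Oasl, Irf1 and Stat2 had a promoter in the table with no match in the window.

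Isg15, a ubiquitin-like protein that is attached to other proteins after interferon, stood at 162, 36.6 and 223 FPKM in the 3 Emo-24h rats and at 5.96, 22.8 and 5.19 in the Sham-24h rats. The groups did not overlap, with the lowest treated and the highest sham value close to each other, and both of these came from the rats numbered 2. The fitted difference was 12.2-fold (95% interval 1.77- to 84.6-fold, unadjusted p = 0.0234, edgeR). Rsad2, also called viperin, which makes a chain-terminating nucleotide, read 25.4, 5.56 and 55.7 against 1.34, 3.57 and 2.06 FPKM, or 12.4-fold (2.38 to 64.1; unadjusted p = 0.00849). Ifit3, which binds foreign RNA together with its relatives, read 101, 26.6 and 206 against 7.72, 11.8 and 6.72 FPKM (log2 difference 3.66, 1.24 to 6.08; unadjusted p = 0.00947). In each of these genes Emo-24h rat 2 was the lowest treated rat and Sham-24h rat 2 the highest sham rat.

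Oasl, an oligoadenylate synthetase-like sensor partner, was at 29.5, 10.8 and 42.3 FPKM against 3.35, 4.58 and 3.10, with no overlap (log2 difference 2.89, 0.82 to 4.96; unadjusted p = 0.0125, edgeR). Irf1, a transcription factor that both interferon types induce, was at 71.2, 47.4 and 63.9 against 39.7, 26.2 and 33.3 FPKM. Its difference was smaller and better held, 1.81-fold, with a log2 interval of 0.29 to 1.42 and an unadjusted p of 0.00464. Gbp5, a guanylate-binding protein that interferon gamma induces strongly, was at 32.1, 15.7 and 35.1 against 11.6, 9.45 and 7.05 FPKM, a log2 difference of 1.55 (unadjusted p = 0.0279). It was also the only list member called against SAP-24h, 2.28 higher in Emo-24h on the log2 scale (adjusted p = 0.0398), a contrast that shares the Emo-24h rats. Groups overlapped in other members. Irf7, the factor that amplifies the type I response, was at 238, 63.1 and 199 against 21.7, 71.9 and 10.9 FPKM (2.22, unadjusted p = 0.104), and Mx1, a dynamin-like antiviral GTPase, at 96.9, 16.5 and 97.0 against 4.09, 18.5 and 2.84.

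The difference was not even among rats. The mean log2 level of the list, as a difference from the Sham-24h mean, was 2.38, 0.90 and 2.89 in the Emo-24h rats and -0.24, 0.65 and -0.42 in the Sham-24h rats, so the closest pair was 0.25 apart and the furthest 3.31. High levels were also seen in single rats without emodin. One Con-24h rat was at 2.67 with the others at -0.60 and -0.98, and one SAP-24h rat was at 1.38 with the others at -0.67 and -0.56, whereas the DEX-24h rats read -0.46, -0.85 and -1.11. Isg15 reached 237 FPKM in that Con-24h group, whose lowest rat had 2.62. Ifit1 rested on 1 animal, with 90.2 FPKM in Emo-24h rat 3 against 0.62 in both of the others, and it has close relatives that can share reads. Without that rat its log2 difference turned from 3.70 to -2.02.

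**Figure D2:**
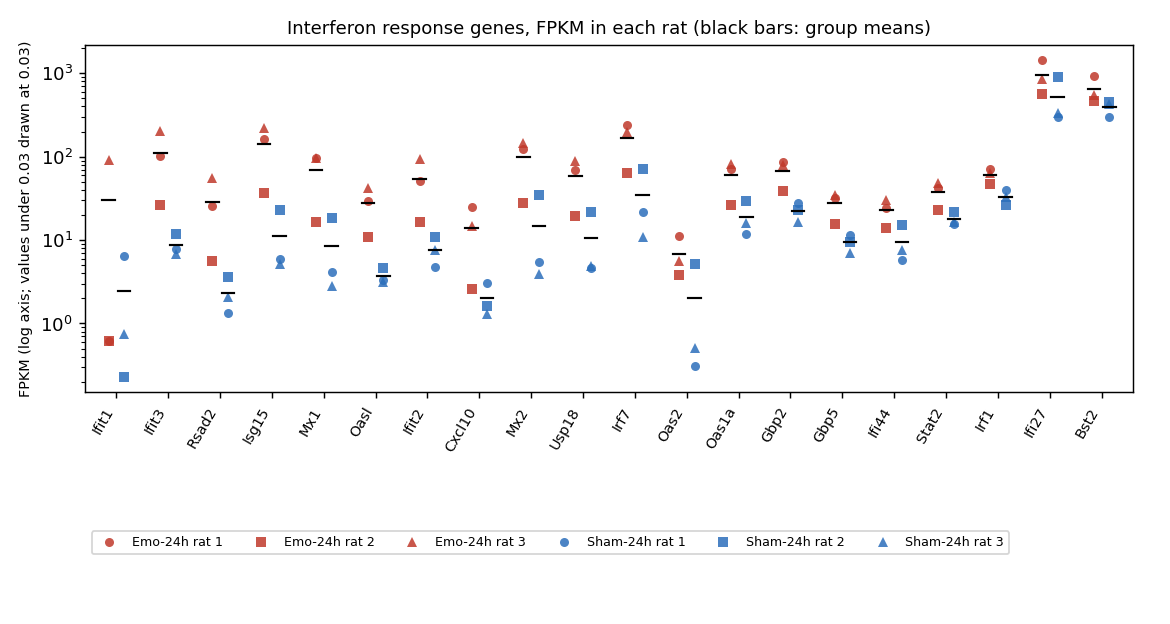
FPKM (log axis) of 20 interferon response genes in each Emo-24h and Sham-24h rat, 1 point per rat. In 10 of them the 3 Emo-24h points lie above all Sham-24h points, and in Isg15 the closest values, 36.6 and 22.8 FPKM, are both from rats numbered 2.

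Some genes outside the list were also called higher by the exact test and are known as interferon-induced. They are named here after their values were seen, and no list or test stands behind the choice. Among the 53 higher calls were Oas3 (log2 difference 2.59, adjusted p = 5.51e-14, edgeR exact test), Oasl2 (2.61, 7.03e-07), Samhd1 (1.66, 0.000162), Ifi47 (1.70, 0.000167), Zbp1 (2.14, 0.0227) and the RNA helicase sensors Dhx58 (1.99, 0.0365) and Ifih1 (1.38, 0.0497). Tap1, the transporter that feeds peptides to MHC class I, was also called (1.11, 0.0376). In the quasi-likelihood fit none of them passed.

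By a fixed rule, the 10 genes with the lowest unadjusted p were taken in each direction among genes of at least 1 FPKM (leaving out symbols that begin AABR, LOC, RGD or Rn60), past 2-fold and with no overlap of the groups, together with 3 long non-coding RNAs. Those differences are given as measured, since none passed the adjusted test. The 10 higher genes were drawn from a pool of 91 and the 10 lower genes from a pool of 16. Both higher genes of lowest p encode small secreted proteins. Slurp1 (ENSRNOG00000005944, chromosome 7), which acts on nicotinic acetylcholine receptors, read 3.89, 9.25 and 10.6 FPKM in Emo-24h and 0.34, 0.06 and 0.29 in Sham-24h. The lowest treated value was far above the highest sham value, and the fitted difference was 32.9-fold (5.7 to 202; unadjusted p = 0.000403, edgeR quasi-likelihood test). It was higher in SAP-24h too (log2 difference 6.14, adjusted p = 0.00375). Wfdc21, which has a whey acidic protein domain, read 38.7, 62.1 and 89.2 against 8.70, 13.6 and 17.0 FPKM, with the lowest treated rat above the highest sham rat (log2 difference 2.25 ± 0.619 (SE), unadjusted p = 0.00187).

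Among the remaining 8 higher genes, Oas3, Oasl2 and Helz2 are known as interferon-induced. They are not on the interferon list and are grouped here after their values were seen, with no test of the group. Oas3, which makes the small messenger that activates RNase L, read 7.23, 3.81 and 5.44 against 0.86, 0.84 and 0.99 FPKM (2.58, 1.03 to 4.14; unadjusted p = 0.00329, edgeR). The sham rats were close together and the treated rats all stood well above them. Oasl2 read 77.0, 41.0 and 109 against 9.26, 14.96 and 12.3 FPKM (2.61, unadjusted p = 0.00747), and Helz2, an interferon-induced helicase, read 5.82, 2.91 and 6.20 against 1.52, 2.08 and 2.23 (1.33, unadjusted p = 0.00783). Others were structural or adhesion proteins. Lrrc4, a leucine-rich repeat adhesion protein known from synapses, read 4.35, 3.08 and 3.38 against 1.95, 1.90 and 1.38 FPKM (1.02, 0.38 to 1.65; unadjusted p = 0.00316). Against SAP-24h it was 1.55 higher in Emo-24h (adjusted p = 0.00643). Vwa1, an extracellular matrix protein, read 12.6, 7.28 and 18.3 against 6.31, 4.96 and 6.54 FPKM (1.09, unadjusted p = 0.00449). The others were Myo1a, a brush-border myosin (1.03), Igsf7 (1.74) and AC139927.1 (1.44), with unadjusted p from 0.00263 to 0.00654.

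Among the 10 lower genes, Mfsd2a had the lowest p. It encodes the membrane carrier of lysophosphatidylcholine that brings omega fatty acids into cells. It read 0.58, 0.49 and 0.35 FPKM in Emo-24h and 1.33, 1.79 and 0.68 in Sham-24h, without overlap (log2 difference -1.45 ± 0.300 (SE), -2.07 to -0.83; unadjusted p = 7.4e-05, edgeR). It also stood lower against SAP-24h (-1.27, adjusted p = 0.0146) and against Con-24h (-1.67, adjusted p = 0.00706), contrasts that share the Emo-24h rats. Ctgf, a matricellular protein and a target of TGF-beta and YAP, read 54.4, 44.3 and 69.4 against 107, 247 and 75.1 FPKM, with 1 sham rat far above the others (-1.38, -2.13 to -0.63; unadjusted p = 0.0011). In SAP-24h it was lower than sham by a close amount (-1.56, adjusted p = 0.0101). Cldn1, a claudin of epithelial tight junctions, read 1.48, 1.85 and 2.16 against 2.57, 7.17 and 2.53 FPKM (-1.19, -2.19 to -0.19; unadjusted p = 0.0228), again with Sham-24h rat 2 as the high value. Without that rat the differences narrowed to -0.70 for Ctgf, -0.48 for Cldn1 and -0.75 for Cxcl14, whose values follow.

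Cxcl14, a chemokine that epithelium and fibroblasts make at rest, read 12.9, 17.1 and 8.06 FPKM against 20.4, 49.1 and 21.7 (-1.31, -2.13 to -0.48; unadjusted p = 0.00378, edgeR). Every treated rat was below every sham rat, and Emo-24h lay below SAP-24h as well (-2.09, adjusted p = 0.00565). At 6 h its difference from sham had the opposite sign, and 1 gene of 15934 (0.00628%) passed the test of a difference between the 2 times, which was not Cxcl14. The Emo-6h rats had emodin at 2 h only, so time and the number of doses cannot be told apart in that test. Aqp8, a water channel, read 0.26, 0.15 and 0.34 against 0.83, 2.89 and 0.90 FPKM (-2.65, unadjusted p = 0.00684; -1.79 without Sham-24h rat 2). Ube2t, the ubiquitin-conjugating enzyme of the Fanconi anaemia pathway, read 0.21, 0.14 and 0.30 against 1.29, 1.26 and 0.74 FPKM (-2.33, unadjusted p = 0.0015). Of the 10 lower genes, 8 stayed under 10 FPKM in every sham rat. The rest were Penk, the precursor of enkephalins (-1.73), Sybu, a kinesin adaptor (-1.08), Hgd, an enzyme of tyrosine breakdown (-1.06), and Ybx2, a germ-cell Y-box protein (-1.08). Without Sham-24h rat 2, Ybx2 was at -0.45.

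Of 380 long non-coding RNAs tested, 0 were called, 10 had an unadjusted p below 0.05 (3% of all genes) and 88 had an interval within 2-fold (72.3% of all genes). The steadiest of the 3 named was AABR07051592.2, at 0.89, 1.15 and 0.93 FPKM in Emo-24h and 3.91, 2.92 and 4.77 in Sham-24h (log2 difference -1.98, unadjusted p = 0.011, edgeR). The groups were clearly apart, and the exact test called it (adjusted p = 8.97e-06). AABR07065766.1 (4.31) and AC111781.1 (1.69) were higher.

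**Figure D3:**
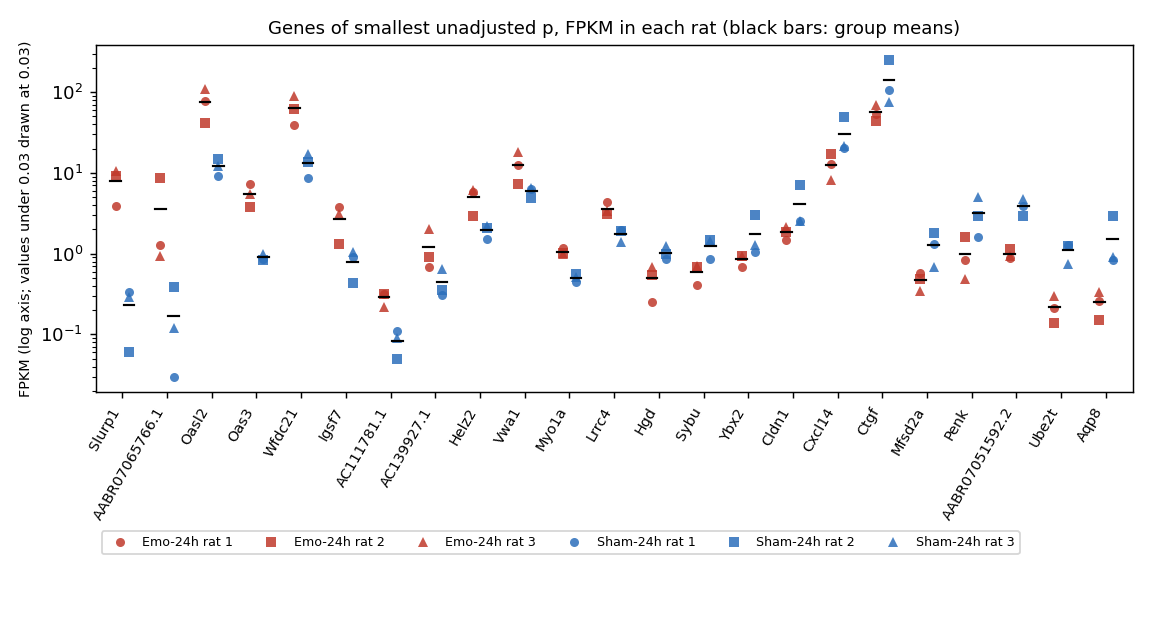
FPKM (log axis) in each rat of the 23 genes picked by the fixed rule, 10 higher, 10 lower and 3 long non-coding. Absence of overlap was a condition for the 20 higher and lower genes, and Slurp1 lies at 3.89 to 10.6 against 0.06 to 0.34 FPKM.

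Genes of inflammation lay above sham in part. Across the lists of NF-kB and TNF signalling, endothelial activation, acute-phase proteins and interleukin-1, even the lowest treated rat's mean level was above the highest sham rat's, with smallest gaps of 0.10, 0.08, 0.23 and 0.07 on the log2 scale. Rat means separated outside inflammation as well, upwards for cytochrome P450 genes (gaps of 0.06 to 0.63) and downwards for tight junction genes (-0.11 to -0.02). For NF-kB, endothelial activation, acute-phase and interleukin-1 the median differences were 0.26, 0.22, 0.38 and 0.24, and no member passed the adjusted test. The same medians in SAP-24h against the same sham rats were 0.95, 0.26, 1.93 and 0.25. Single rats moved these medians. Without Sham-24h rat 2 the acute-phase median was 0.06 and the endothelial activation median 0.14, without Sham-24h rat 1 they were 0.59 and 0.46 and the interleukin-1 median 0.16, and without Emo-24h rat 2 or 3 the endothelial activation median was 0.12 or 0.36. The activated endothelium list had members on both sides of sham. Thbd, the thrombin receptor that starts the protein C pathway, was the member below it, at 205, 188 and 137 against 221, 249 and 219 FPKM without overlap (-0.41, -0.71 to -0.12; unadjusted p = 0.00799, edgeR), and its interval stays within 2-fold. Selp, the P-selectin that catches rolling leukocytes, read 5.29, 4.39 and 5.40 FPKM against 1.99, 0.72 and 2.31, with no overlap and treated rats near each other (1.56, unadjusted p = 0.0525). The exact test called it (adjusted p = 0.035), and SAP-24h stood 3.82 above sham. Sele, E-selectin, read 1.75, 1.09 and 1.27 against 0.50, 0.03 and 0.41 FPKM (2.12, unadjusted p = 0.0483), and Vcam1 read 22.0, 14.9 and 16.5 against 14.4, 7.03 and 9.67 (0.76, unadjusted p = 0.0462). Of the 15 members, 9 were nonetheless held within 2-fold.

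Socs3, the feedback inhibitor that interleukin-6 type cytokines induce through STAT3, read 53.1, 52.2 and 52.9 FPKM in the treated rats and 17.5, 9.79 and 33.1 in the sham rats, so the treated rats were nearly alike and all above the more scattered sham rats (1.36, 0.30 to 2.43; unadjusted p = 0.0158, edgeR). SAP-24h stood 3.16 above sham and was called. Lbp, the acute-phase protein that carries lipopolysaccharide to CD14, read 43.0, 35.8 and 38.8 against 21.2, 16.8 and 33.5 FPKM, or 0.69 higher (unadjusted p = 0.00989) where SAP-24h was 1.93 higher. Relb (0.66, unadjusted p = 0.0173) and Bcl3 (0.84, unadjusted p = 0.0473), both of the NF-kB family, lay above sham too. Il6 itself was near the floor in both groups, at 0 to 0.16 FPKM in Emo-24h and 0.06 to 0.11 in Sham-24h. Its interval of -3.56 to 3.67 holds no useful bound, while SAP-24h was 5.71 higher and called.

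Further signalling lists had no call either. The median difference was 0.20 for the interleukin-6 family and SOCS genes, with 6 of 14 held within 2-fold. It was 0.34 for CXC chemokines and receptors (4 of 16), 0.06 for CC chemokines and receptors (4 of 18), 0.14 for coagulation and fibrinolysis (8 of 14), 0.16 for complement (11 of 20), 0.00 for prostaglandin and leukotriene synthesis (9 of 16) and 0.21 for immediate early genes (7 of 19). When single rats were left out, the CXC median ran from 0.12 (Emo-24h rat 1) to 0.54 (Sham-24h rat 1), the CC median from -0.16 (Sham-24h rat 3) to 0.20 (Sham-24h rat 1) and the complement median from -0.03 (Emo-24h rat 1) to 0.26 (Sham-24h rat 2). Without Sham-24h rat 3 the coagulation median was 0.26 and the immediate early median 0.33, and without Emo-24h rat 2 the interleukin-6 family median was 0.33. In SAP-24h the interleukin-6 family list had a median of 1.15 with 6 calls higher and the immediate early list a median of 1.23 with 6 calls higher, against 1.98% of all genes called higher. The chemokine lists are mostly low genes, and their low counts within 2-fold go with wide intervals.

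The nuclear genes of energy metabolism lay close to sham. All 29 nuclear genes of oxidative phosphorylation were within 2-fold and within 1.5-fold of sham, with differences from -0.20 to 0.03. Over all genes 72.3% and 48.1% were, and among those at 10 to 100 FPKM 91.3% and 73.8%. Atp5b, a catalytic subunit of ATP synthase, had an interval of -0.28 to 0.11 on the log2 scale, and Cox4i1, of cytochrome c oxidase, one of -0.31 to 0.16. Over all pairs of a treated and a sham rat, the mean of this list differed by no more than -0.22 to 0.06. Of 28 cytosolic ribosomal protein genes 26 were within 2-fold and 24 within 1.5-fold, although 13 were below sham in every treated rat, where 3.13% of all genes were. Their median was -0.17 and the list's rat means lay 0.03 to 0.41 below sham in every pair. Several ribosomal genes have pseudogenes that can take reads. The 11 genes of the mitochondrial genome had a median of 0.02 with 8 within 2-fold. Their differences ran from -0.58 to 0.70, with 2 higher and 1 lower at an unadjusted p below 0.05 (edgeR). Mt-nd2, a complex I subunit, read 1930, 1940 and 1958 FPKM against 1245, 1136 and 1157, with tight groups (0.70, 0.21 to 1.18; unadjusted p = 0.00712, edgeR).

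Metabolic and stress lists were held within 2-fold to different degrees, where 72.3% of all genes were. All 17 genes of cholesterol synthesis and uptake were within 2-fold (median 0.07), as were 17 of 20 for hypoxia and glycolysis (0.06), 16 of 19 targets of the antioxidant factor NRF2 (0.15), 15 of 19 circadian clock genes (-0.02), 14 of 18 of the unfolded protein and amino acid stress list (0.08) and 13 of 14 p53 targets (-0.11). In the unfolded protein list the untreated model stood above the same sham rats, with a median of 0.96 and 6 of 18 called higher, against 1.98% of all genes. In Emo-24h against SAP-24h, 6 of its 18 genes were called lower, against 1.26% of all genes. Heat shock chaperones had a median of 0.06 and 7 of 13 within 2-fold in Emo-24h, and a median of 1.31 with 9 of 13 called higher in SAP-24h. That reference was uneven, with rat means of 2.74, -0.26 and 0.97 in SAP-24h. Without Sham-24h rat 3 the Emo-24h median was 0.28 for the unfolded protein list, with 10 of 18 within 2-fold, and 0.24 for the chaperones. Hsp90aa1 had the largest difference among the chaperones, at -4.86, and ran from -6.8 to 3.19 over the alternative fits. Hspa1b, an inducible chaperone of the cytosol, read 4.48, 3.27 and 4.77 FPKM against 2.75, 4.19 and 2.79, which overlap (0.34, -1.37 to 2.04). Several chaperones have near copies, so their single values are uncertain.

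Metallothioneins and zinc handling had a median of 0.15 with 6 of 9 within 2-fold. The median was -0.01 without Emo-24h rat 3 and 0.25 without Emo-24h rat 2. The 2 metal-binding proteins that were far above sham in SAP-24h were held unequally, with Mt1 at 0.15 against 3.88 in SAP-24h and Mt2A at 1.30 (-0.69 to 3.29) against 5.55. Proliferation genes had a median of -0.19 with 8 of 21 within 2-fold, and of -0.46 without Emo-24h rat 1.

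**Figure D4:**
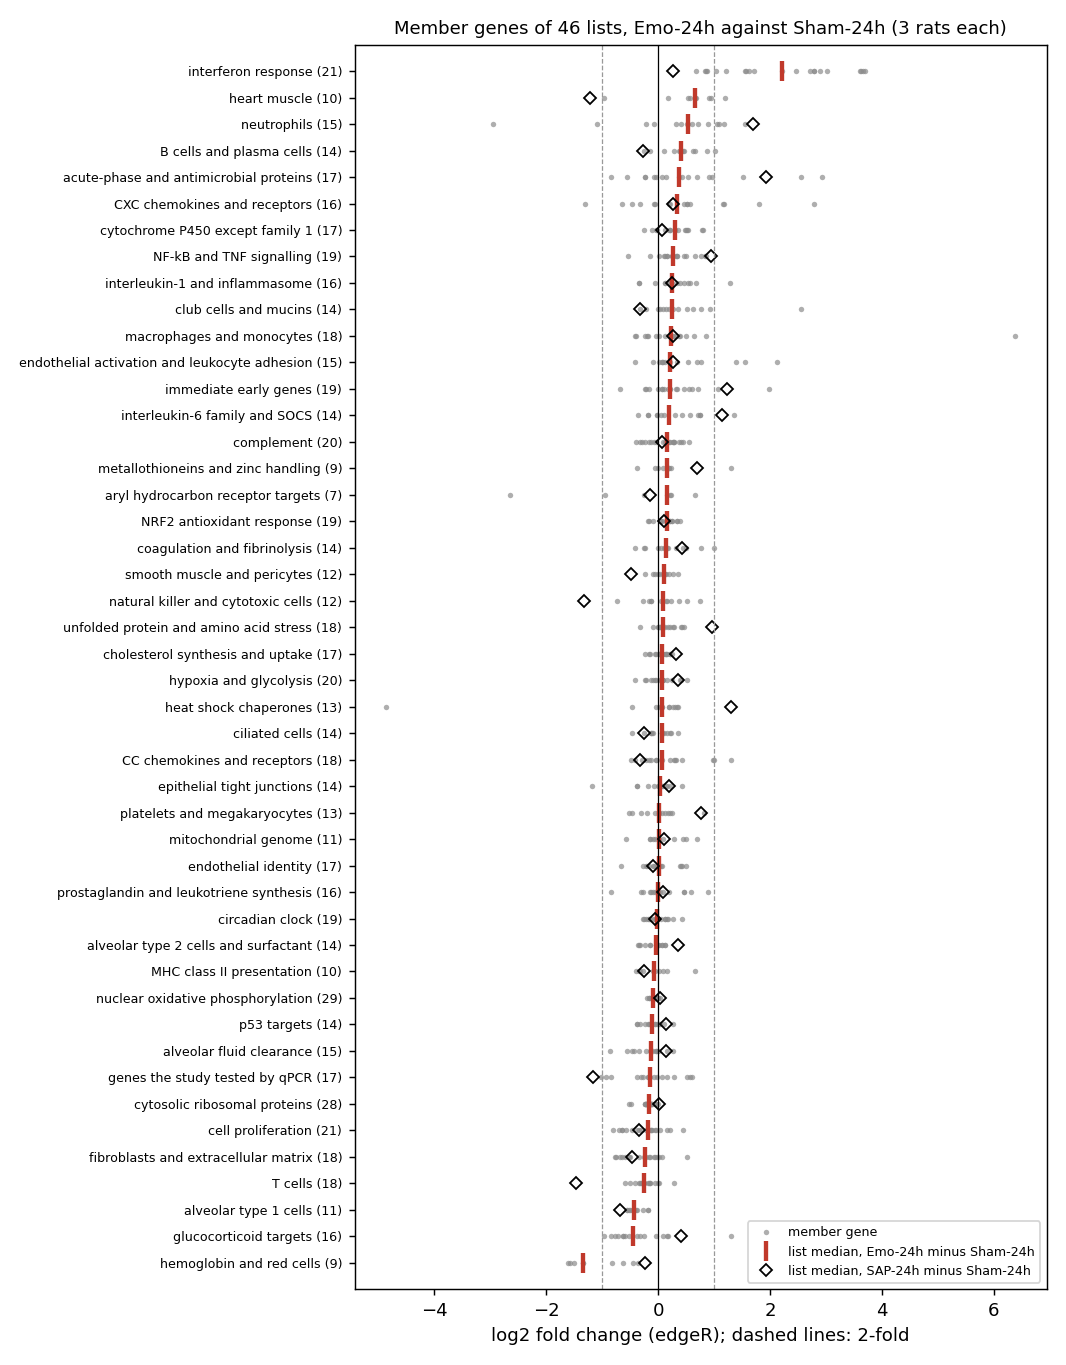
Log2 difference of each member of the 46 lists between Emo-24h and Sham-24h (points), with the list median as a red bar, the SAP-24h against Sham-24h median as an open diamond and dashed lines at 2-fold. The interferon response lies highest with a median of 2.22, the nuclear oxidative phosphorylation genes lie within -0.20 to 0.03, and heat shock chaperones have medians of 0.06 in Emo-24h and 1.31 in SAP-24h.

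In the lung's own cells, genes of the surfactant system were held within 2-fold about as often as other well-expressed genes. Of 14 genes of type 2 cells and surfactant, 13 (92.9%) were within 2-fold and 8 (57.1%) within 1.5-fold, with differences from -0.36 to 0.12. Over all genes 72.3% were within 2-fold, with 91.3% at 10 to 100 FPKM and 89.5% at 100 FPKM or more. Within 1.5-fold the shares in those classes were 73.8% and 66.7%. Sftpc, the most abundant of them, read 21968, 18138 and 19210 FPKM against 24378, 22234 and 17539, which overlap (-0.14, -0.58 to 0.30). Tight junction genes were within 2-fold in 12 of 14 with a median of 0.03, and smooth muscle and pericyte genes in all 12 with a median of 0.10. Ciliated cell genes were so in 12 of 14 with a median of 0.06. The ciliated median was -0.13 without Emo-24h rat 1 and 0.20 without Emo-24h rat 2. Without Emo-24h rat 2 or Sham-24h rat 3, 8 of the 14 ciliated genes were within 2-fold. Endothelial identity genes were within 2-fold in 14 of 17 with a median of 0.01. Within the last, Emcn, a sialomucin of capillary and venous endothelium, read 51.6, 62.6 and 49.5 FPKM against 88.4, 96.6 and 70.5, with every treated rat below every sham rat (-0.67, -1.15 to -0.19; unadjusted p = 0.00851, edgeR). In SAP-24h it was at -1.19 and called (adjusted p = 0.00319).

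Fewer genes of type 1 cells, club cells and fibroblasts were held within 2-fold. All 11 type 1 genes had a negative difference, from -0.56 to -0.18 with a median of -0.44, 4 were within 2-fold and none had an unadjusted p below 0.05 (edgeR). Members lower at that level numbered 2 with DESeq2, 1 with limma-voom and 2 in edgeR with no filter on low counts. The rat means of -0.68, -0.10 and -0.48 in Emo-24h and 0.04, 0.12 and -0.15 in Sham-24h overlapped. Ager, the receptor for advanced glycation end products that marks these cells, read 645, 1072 and 786 FPKM against 1125, 1361 and 974. The groups overlapped and the interval was -1.17 to 0.18. Cav1, the caveolar protein shared with endothelium, read 369, 417 and 390 against 541, 720 and 428 FPKM, with every treated rat below every sham rat (-0.55, unadjusted p = 0.0539). Aqp5, the apical water channel of these cells, was at -0.56 (-1.56 to 0.44) where SAP-24h was called lower at -1.55. The list median in SAP-24h was -0.69. The genes of alveolar fluid clearance, which overlap in role, had a median of -0.13 with 9 of 15 within 2-fold. Club cell and mucin genes had a median of 0.24 with 5 of 14 within 2-fold, and fibroblast and matrix genes one of -0.23 with 7 of 18. Leaving out single Emo-24h rats moved the club cell median between 0 (rat 1) and 0.45 (rat 2), the fibroblast median between -0.35 (rat 1) and -0.12 (rat 3) and the type 1 median between -0.59 (rat 2) and -0.26 (rat 1). The 17 genes that the study picked from these libraries for qPCR had a median of -0.14 in Emo-24h and -1.16 in SAP-24h, with 6 within 2-fold. Their choice was made on these samples and is no independent evidence of a direction.

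For most lists of blood and immune cells likeness could not be stated. None of 12 natural killer and cytotoxic genes, none of 9 hemoglobin genes, 1 of 13 platelet genes, 2 of 15 neutrophil genes, 2 of 14 B cell and plasma cell genes and 5 of 18 T cell genes were held within 2-fold. With single rats left out, the T cell count ran from 1 (Emo-24h rat 2) to 7 (Emo-24h rat 3). The neutrophil count ran from 0 to 3 and the B cell count from 1 to 2. Macrophage and monocyte genes (7 of 18, median 0.23) and MHC class II genes (6 of 10, median -0.08) had more members within 2-fold, although 3 of the 10 MHC class II genes were without Emo-24h rat 1 or Sham-24h rat 3. The neutrophil list had a median difference of 0.53, but its rat means ran at 0.88, 0.90 and 0.69 in Emo-24h and at 0.25, -1.42 and 1.16 in Sham-24h, so the sham rats alone spanned the treated ones. Members higher at an unadjusted p below 0.05 numbered 0 in edgeR, 6 with limma-voom (median 1.12) and 9 in edgeR without Sham-24h rat 3. Ngp had the list's largest difference, at -2.95, and ran from -4.18 to -0.08 over the alternative fits. S100a8, a subunit of the calprotectin that fills neutrophils, read 1905, 3078 and 2189 FPKM against 578, 81.2 and 4662. Its interval of -1.64 to 2.44 allows a difference in either direction. In SAP-24h the neutrophil list had a median of 1.69 and rat means of 1.95, 1.29 and 2.13, above every treated and every sham rat.

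T cell genes had a median of -0.25 in Emo-24h and of -1.47 in SAP-24h, where 12 of 18 were called lower against 3.01% of all genes. Cd3d, a chain of the T cell receptor complex, read 9.35, 8.23 and 2.48 FPKM in Emo-24h and 11.4, 9.03 and 5.68 in Sham-24h, with an interval of -1.35 to 0.51, and was called lower in SAP-24h (adjusted p = 0.0101). The T cell means were 0.23, 0.02 and -1.28 in the Emo-24h rats and 0.31, -0.11 and -0.20 in the Sham-24h rats. Thus 2 treated rats lay among the sham rats, and Emo-24h rat 3 lay near the SAP-24h rats, at -1.66, -1.61 and -1.23. In the natural killer list Emo-24h rat 3 was low again, with means of 0.58, 0.38 and -1.51 against 0.19, -0.36 and 0.17. There the other treated rats lay above every sham rat. Its median was 0.09, and ran from -0.27 without Emo-24h rat 1 to 0.55 without Emo-24h rat 3. B cell and plasma cell genes had a median of 0.41, platelet genes 0.02 and hemoglobin genes -1.35. The platelet median ran from -0.20 without Emo-24h rat 3 to 0.27 without Sham-24h rat 3. The B cell median was 0.17 without Sham-24h rat 2 and 0.66 without Sham-24h rat 1, and the macrophage median 0.07 without Sham-24h rat 2. Hemoglobin means of -0.04, -1.22 and -1.32 stood against -0.83, -0.47 and 1.31, so that the sum depended on Sham-24h rat 3. Heart muscle genes, which in rodents are also used by the muscle sleeves of the pulmonary veins, had a median of 0.65 and were near zero in Sham-24h rat 2 (Myh6 at 0.01 FPKM) and not in the other 5 of the 6 rats. Their median was 0.08 without Sham-24h rat 2, 1.30 without Sham-24h rat 1 and 1.73 with limma-voom. The part of carried tissue and blood in the other results was not tested.

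**Figure D5:**
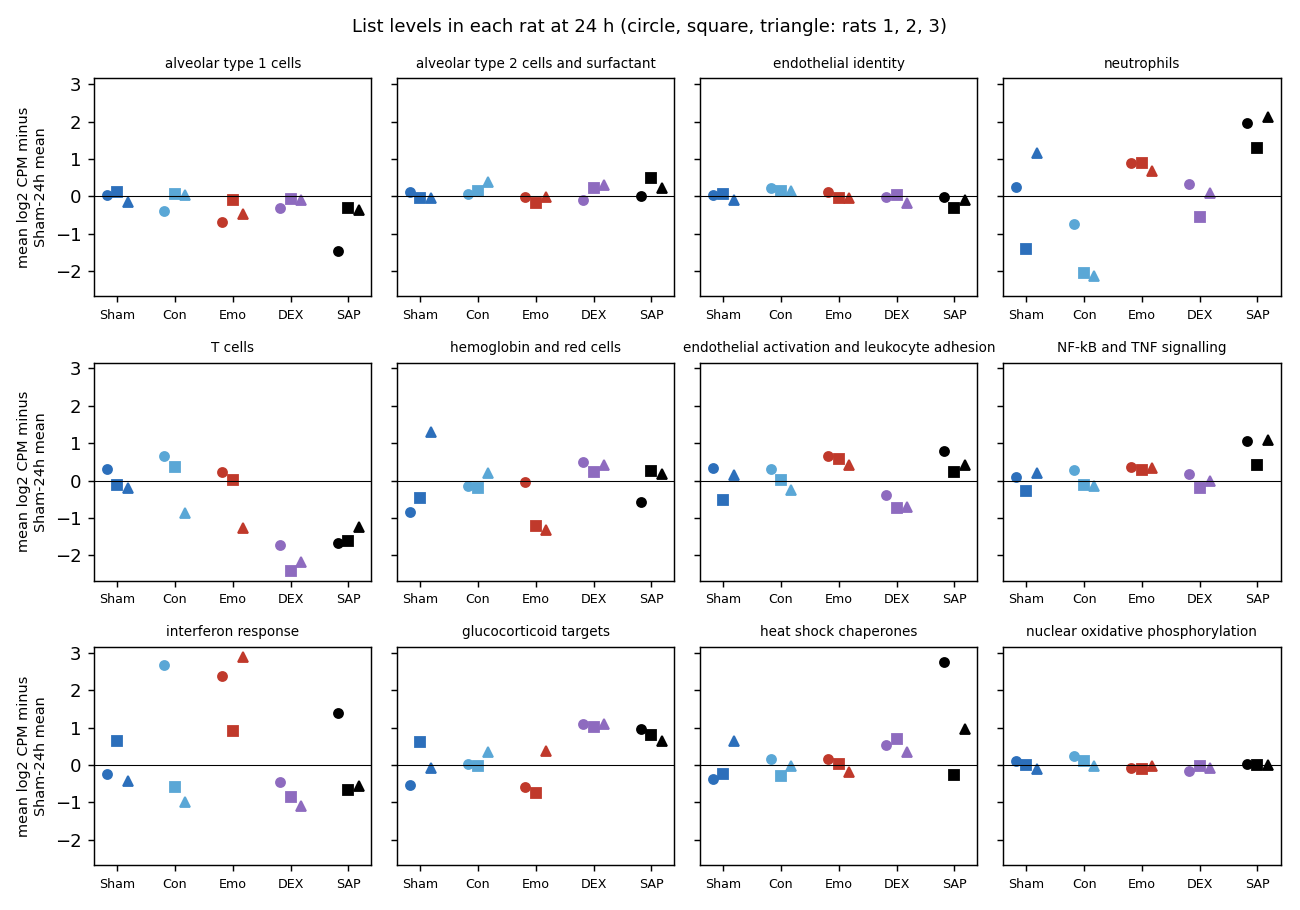
Mean log2 CPM of 12 lists in each of 15 rats at 24 h, as the difference from the Sham-24h mean, with 1 point per rat and the groups Sham, Con, Emo, DEX and SAP. Emo-24h rats read 2.38, 0.90 and 2.89 for the interferon list, and 1 of the 3 (at -1.28) reads with SAP-24h for T cells.

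Genes that respond to hormones and foreign compounds were also looked at, since a plant compound was given. Glucocorticoid targets had a median of -0.45, with 5 of 16 within 2-fold and 4 lower at an unadjusted p below 0.05, where 1.39% of all genes were. Tsc22d3, the leucine zipper protein GILZ, read 128, 130 and 233 FPKM in Emo-24h and 172, 459 and 233 in Sham-24h (-0.84, unadjusted p = 0.00814, edgeR). The groups overlapped, and the highest value came from Sham-24h rat 2. Without this rat the list's median was 0.01, no member was lower at an unadjusted p below 0.05 and 10 were within 2-fold. The count of 4 lower was also 0 without Emo-24h rat 1 and on the 6 libraries, and 10 without Emo-24h rat 3. Targets of the aryl hydrocarbon receptor, the sensor of planar aromatic compounds, had a median of 0.15 with 4 of 7 within 2-fold. Cyp1a1, its classic target, read 4.68, 2.46 and 10.1 against 5.45, 97.1 and 3.66 FPKM. The difference of -2.65 rested on the same sham rat and was 0.35 without it. The other cytochrome P450 genes had a median of 0.30 with 7 of 17 within 2-fold, and of 0.12 without Emo-24h rat 3.

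Over all 46 lists, 375 of 694 tested members (54%) were within 2-fold, against 72.3% of all genes, and 177 within 1.5-fold. The medians of 35 lists were within 0.25 of zero. For 4 lists the median and the mean over members differed in sign, namely aryl hydrocarbon receptor targets (mean -0.23), natural killer genes (-0.19), tight junctions (-0.06) and the circadian clock (0.09). Members with an unadjusted p below 0.05 numbered 26 higher, 12 of them from the interferon list, and 15 lower, where 1.61% and 1.39% of all genes were.

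The saline-infused control group shows how far 0 calls can be read. Con-24h, which like Sham-24h had no taurocholate, differed from Sham-24h in 160 genes (1%), 14 higher (0.0879%) and 146 lower (0.916%). Emo-24h differed from Con-24h in 273 genes (1.71%), 229 higher (1.44%) and 44 lower (0.276%). The absence of calls between Emo-24h and Sham-24h therefore holds for these sham rats and not for the saline-infused rats. The neutrophil list went furthest with this choice, with rat means of -0.73, -2.06 and -2.12 in Con-24h and 5 of its 15 genes called between Con-24h and Sham-24h. The count of Emo-24h against Con-24h was uneven over rats, at 2 without Emo-24h rat 2, 102 without Con-24h rat 1, 10 without Con-24h rat 2 and 416 without Con-24h rat 3.

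The genes that separate the untreated model from the saline-infused control were read in Emo-24h against Sham-24h, since those 2 contrasts share no library. The reading was chosen after the data were seen. In both contrasts the first group was infused with taurocholate and had a lower share of uniquely mapped reads than the second. The 2 contrasts therefore hold this library difference in the same direction, and its part in the values below was not tested. Of the 582 genes called higher in SAP-24h than in Con-24h (3.65% of genes tested; median log2 difference 1.47), 424 (72.9%) had a positive difference between Emo-24h and Sham-24h, where 48.1% of all genes did. Their median was 0.215, 46.7% were within 2-fold, and 31 were higher and 3 lower at an unadjusted p below 0.05 in edgeR. Of the 519 genes called lower (3.26%; median -1.49), 30.3% had a positive difference, with a median of -0.173, 43% within 2-fold, and 3 higher and 24 lower at an unadjusted p below 0.05.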

How the data were processed

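Lungs were sequenced as poly(A)-selected, strand-specific paired libraries. Per the labels and the study's methods, the authors used TopHat2 with the build rat_ensembl_v6, kept uniquely mapped reads and deposited a table of counts per gene (22914 genes) and a table of FPKM per gene (22907). FPKM values deposited by the authors are used here to show levels in single rats. Tests used the deposited counts in edgeR 4.0.16 (R 4.3.3): filterByExpr (at least 10 reads, total 15), TMM scaling and glmQLFit over all 30 libraries in 10 groups, then Benjamini-Hochberg adjustment over 15934 genes. A call needed an adjusted p below 0.05 and at least 2-fold. The 95% intervals are Wald intervals and may differ slightly from the F test's p. Of these genes, 50 had no interval because one group held no reads. Scripts were tested on simulated counts. Replicates are separate rats.

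Genes named by rule were the 10 with the lowest unadjusted p in each direction among genes with a symbol not beginning AABR, LOC, RGD or Rn60 (which leaves other clone names in), 1 FPKM or more on average in either group, a 2-fold difference or more and no overlap of the groups, plus the 3 long non-coding RNAs of lowest p. In each list, the 2 members of highest sham level and the member of largest difference were marked too, and other members named were picked after their values were seen. The 46 gene lists (707 of 739 symbols in the table), like this comparison, were chosen with earlier results of these data known. Alternatives were RLE scaling, DESeq2 1.42.0, limma-voom 3.58.1, other filters, fits on 6 or 15 libraries, a replicate block and leaving out each rat. The exact test was added after the data were seen. Promoters came from RefSeq (GRCr8). A member of the interferon list is counted with it but is not reported here by itself.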

Additional observations from a re-analysis of the deposited data

Results flagged for a closer look

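Cxcl14 stood out because its difference from sham pointed in opposite directions at the 2 times, with every rat of each group on its side. At 24 h the log2 difference between emodin-treated and sham rats was -1.31, and at 6 h it was 1.06, with 72.5 to 142 FPKM in the treated and 48.1 to 51.5 in the sham rats. The Emo-6h rats had emodin at 2 h only and the Emo-24h rats at 2 h and 12 h. Time and the number of doses therefore cannot be told apart in this comparison. The 24 h difference minus the 6 h difference was -2.37, and the interaction test in edgeR gave an adjusted p of 0.352, so a change with time was not shown. Of 15934 genes, 1 passed that interaction test (0.00628%). It was Rps4x, with 0.21 at 24 h and -1.19 at 6 h (adjusted p = 0.0445), a ribosomal gene with copies that can share reads.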

How the results depend on the processing

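The count of 0 calls held under RLE scaling, DESeq2, limma-voom, no filter, a filter at 1 CPM, fits on 6 and 15 libraries and the replicate block, with lowest adjusted p from 0.0926 to 1. The exact test, added after the data were seen, gave 66. Leaving out each rat gave 0 to 1, the 1 being Mfsd2a (-1.75, adjusted p = 0.0495) without Sham-24h rat 3. Genes at an unadjusted p below 0.05 numbered 478 and ranged from 277 (without Sham-24h rat 2) to 811 (without Sham-24h rat 3), with 749 on 6 libraries. With a 2-fold change required as well they were 207, and a 1.5-fold band held 7669 genes. The share within 2-fold was 66% to 78.8% except with no filter (50.3%). For reference contrasts, 6 libraries gave 3 for SAP-24h against Sham-24h, 0 for Emo-24h against SAP-24h, 0 for Con-24h against Sham-24h and 89 for Emo-24h against Con-24h. Leaving out each rat gave 433 to 838, 127 to 516, 30 to 367 and 2 to 416. Single rats moved these by over 1.5 times: 488 without Sham-24h rat 1, 463 without Sham-24h rat 2 and 433 without SAP-24h rat 1 in the first, 204, 127 and 279 without Emo-24h rats 1 and 2 and SAP-24h rat 1 in the second, and 62, 49, 30 and 367 without Sham-24h rat 3 and Con-24h rats 1, 2 and 3 in the third. The cause was not tested. Replicate numbers were not taken as pairs in the main fit. Correlations of same-numbered deviations were 0.312, -0.0443 and 0.149, and those of differently numbered ones ran from -0.32 to 0.169. With 3 rats per group these values cannot decide whether the rats were paired. The replicate block gave 0 calls and 459 genes at an unadjusted p below 0.05.

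The interferon median ran from 1.79 (without Sham-24h rat 3) to 3.10 (without Sham-24h rat 2), and its members at an unadjusted p below 0.05 from 4 (without Emo-24h rat 3) to 18 (6 libraries). Neutrophil genes ran from 0.18 (without Sham-24h rat 2) to 1.97 (without Sham-24h rat 3), hemoglobin genes from -2.25 (without Emo-24h rat 1) to -0.09 (without Sham-24h rat 3), T cell genes from -0.52 to 0.14 (without Emo-24h rat 3) and glucocorticoid targets from -0.87 (without Emo-24h rat 3) to 0.01 (without Sham-24h rat 2). Of 46 list medians, 27 kept their sign in every setting, and of 164 named genes 108 did, over 14 settings. Ifit1 ran from -2.02 (without Emo-24h rat 3) to 5.97 and Cyp1a1 from -3.4 to 0.35 (without Sham-24h rat 2) when rats were left out. Below 1 FPKM the interval was too wide to state likeness for most genes.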

Other observations

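Wfdc18, a whey acidic protein domain gene like Wfdc21 on chromosome 10, is listed under 2 identifiers, with mean levels of 1.90 and 1.23 FPKM in Emo-24h and 0.157 and 0.177 in Sham-24h. The log2 differences were 3.55 (0.53 to 6.71) and 2.70 (0.41 to 5.21), and reads can be split between near-identical copies. Marco, the scavenger receptor of alveolar macrophages, read 0.06, 0.52 and 0.02 FPKM in Emo-24h and is listed at 0 in every Sham-24h rat.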
